A study of Rattus norvegicus with 15 samples.

Results

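The 10 genes described here encode heat shock proteins and their co-chaperones, and were chosen by symbol from a fixed set of names. They were Hspa8, Hspa5, Hsph1, Hsp90aa1, Dnajb1, Bag3, Hspb1, Hspb6, Hspb7 and Cryab. All 10 were found among the 37991 genes of the count table, each in 1 row, and all 10 were among the 17201 genes with enough counts for a test. Molecular chaperones bind unfolded stretches of other proteins and help them fold, return from aggregates or reach degradation. HSP70 proteins do this in cycles of ATP use that J-domain proteins start and nucleotide exchange factors end, HSP90 completes the folding of kinases and receptors, and small heat shock proteins hold damaged proteins without ATP. In skeletal muscle, small heat shock proteins and BAG3 act at the Z-disc, where contraction wears out filamins and other proteins.

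RNA of multifidus, a deep paraspinal muscle, was sequenced in 15 libraries of 12-week-old male wild-type Sprague Dawley rats. Uninjured rats formed the Control group (2 libraries). The other groups all carried a left hemilaminectomy with ligation of the left L5 spinal nerve, and were the Surgery group without treatment (2 libraries), the pMT group (4), the pMT/VitD group (4) and the VitD group (3). pMT denotes mitochondria isolated from human plasma, injected into the left paraspinal muscle at L4–L5 and L5–L6 at 25 μg per site and 50 μg per rat. VitD denotes cholecalciferol at 150 μg per site and 300 μg per rat. The methods of the study place the pMT injection on day 14 after surgery and tissue collection on day 28. For the groups with VitD the days are not stated in the sources used here. The labels do not say whether each library is a separate rat, so the p-values measure the spread between libraries, part of which may be technical.

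Total counts ranged from 52342134 to 73557878 per library, and 10.7% to 22.6% of them came from protein-coding genes of mitochondrial DNA. Markers of skeletal muscle fibres (Ckm, Acta1 and others) had counts in every library. The library VitD replicate 1 stood apart, since the library nearest to it in expression was still 0.417 away (root mean square log2 difference over 3129 genes). The libraries pMT/VitD replicate 3 and pMT/VitD replicate 4 lay nearest to Control replicate 1, pMT replicate 4 lay nearest to pMT/VitD replicate 1, and VitD replicate 2 lay nearest to Surgery replicate 2 (0.0821). The Surgery libraries were the closest pair within a group (0.0637). They differed by more than read sampling (median chi-square per gene 1.32, against 0.455 for sampling alone). Technical spread can do the same, so this does not show whether they are separate rats. They were kept as 2 samples because their titles list them so. The markers of macrophages, of fibroblasts and matrix, and of denervated muscle differed between the groups, and their values stand beside the results that they moved with. In bulk RNA, fewer cells of a type and less RNA per cell cannot be told apart.

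The promoters of members that were lower in pMT/VitD than in VitD are shown first, because these genes carry most of the differences described below. Promoter sequences came from RefSeq (GRCr8 assembly), which gave an entry for 8 of the 10 members, not for Cryab and Hsp90aa1. The 250 bases before the gene start are printed 5′ to 3′ in the direction of the gene, with each CpG dinucleotide in capitals.
Hspa5 (chr3:38452766-38453015, + strand): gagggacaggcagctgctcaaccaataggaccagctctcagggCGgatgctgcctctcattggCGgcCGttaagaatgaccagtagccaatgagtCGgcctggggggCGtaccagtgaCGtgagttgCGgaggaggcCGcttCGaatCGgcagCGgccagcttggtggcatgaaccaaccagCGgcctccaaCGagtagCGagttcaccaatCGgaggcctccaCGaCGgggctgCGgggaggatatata
Dnajb1 (chr19:41431142-41431391, - strand): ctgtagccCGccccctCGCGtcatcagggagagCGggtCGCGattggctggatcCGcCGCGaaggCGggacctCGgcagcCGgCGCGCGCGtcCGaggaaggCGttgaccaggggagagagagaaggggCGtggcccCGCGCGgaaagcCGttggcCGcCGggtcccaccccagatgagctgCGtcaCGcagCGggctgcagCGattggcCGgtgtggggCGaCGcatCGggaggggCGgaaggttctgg
Hspb7 (chr5:159010509-159010758, + strand): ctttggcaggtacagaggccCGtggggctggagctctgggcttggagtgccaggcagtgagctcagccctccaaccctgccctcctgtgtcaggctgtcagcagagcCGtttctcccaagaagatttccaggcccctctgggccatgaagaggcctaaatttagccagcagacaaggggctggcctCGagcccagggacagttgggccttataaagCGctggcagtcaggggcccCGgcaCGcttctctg
The window of Dnajb1 held 34 CpG dinucleotides, that of Hspa5 18 and that of Hspb7 6. The median over 27457 promoters was 6, and 3.15%, 21.7% and 51.7% of all promoters held at least as many. These 3 genes thus differ widely in CpG content although their levels were lower in the same comparison. The other 5 members with an entry held between 7 (Hspb6) and 23 (Hspa8).

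Small heat shock proteins were the most abundant members. Levels are compared between genes on the length-corrected scale, the deposited TPM, as means over the 15 libraries. Cryab, the αB-crystallin that binds desmin and other filaments, stood highest at 1754 TPM. Hspb6 (1317 TPM) and Hspb1 (758 TPM), which encode HSP20 and HSP27, came next, ahead of Hspa8 (669 TPM), the constitutive HSP70 of the cytosol. Hspb7, a small heat shock protein of striated muscle that binds filamin C, had 331 TPM. Hspa5, the HSP70 of the endoplasmic reticulum (BiP, GRP78), had 111 TPM, and Bag3, which links HSP70 to small heat shock proteins and selective autophagy, had 99.5 TPM. Hsph1 (24.3 TPM), the HSP110 nucleotide exchange factor, Hsp90aa1 (20.1 TPM), the stress-inducible HSP90, and Dnajb1 (6.75 TPM), the HSP40 partner of HSP70, were the least abundant. The lowest count of any member in any library was 427, for Dnajb1, so the depth of counting did not limit these values.

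**Figure D1:**
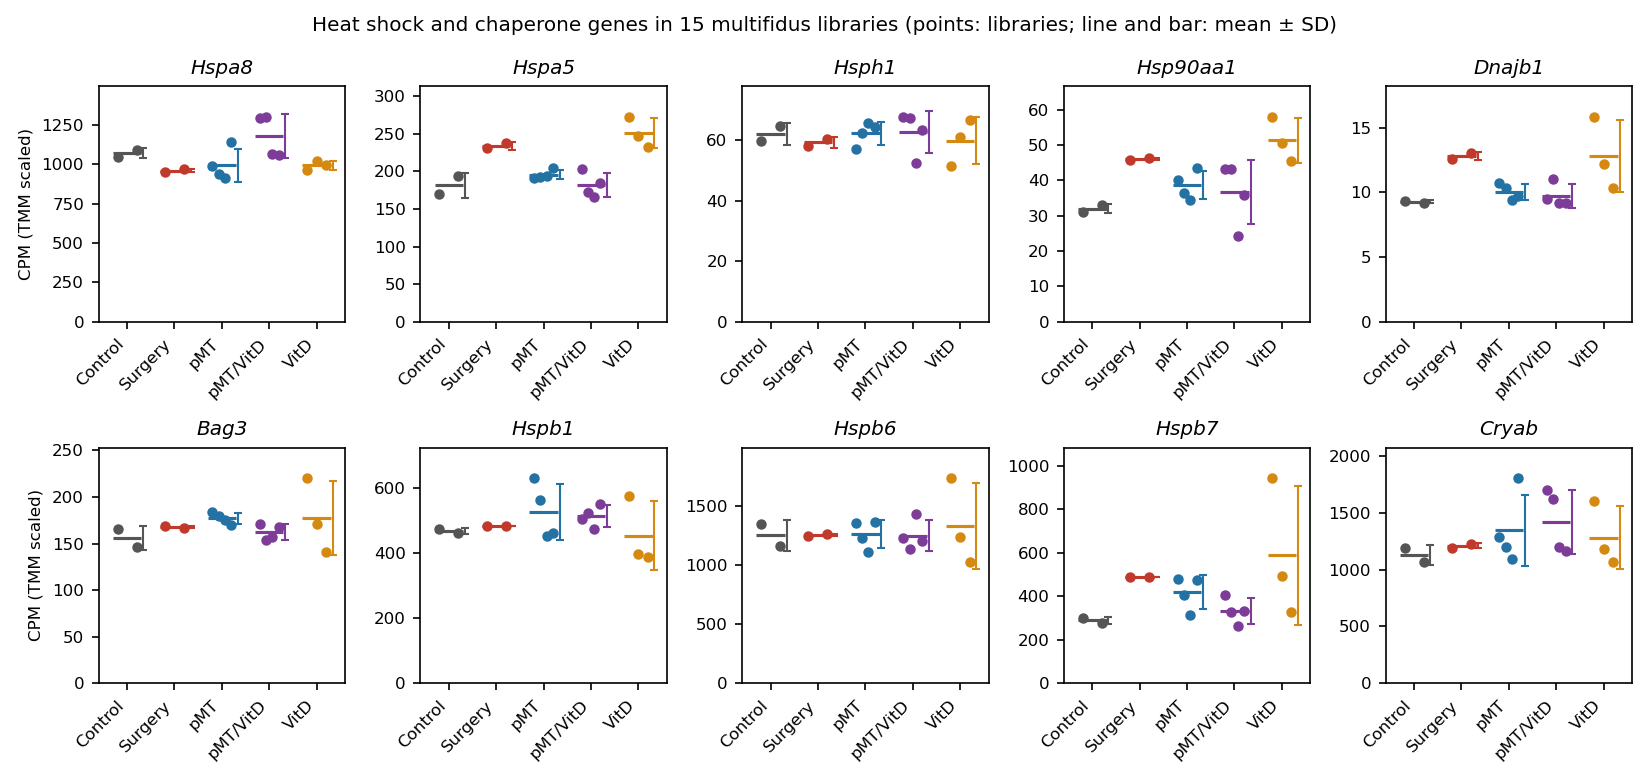
CPM (library-size scaled counts with TMM factors) of the 10 members in each of the 15 libraries, 1 panel per gene, with points for libraries, horizontal lines for group means and vertical bars for the SD. The Control, pMT and pMT/VitD libraries of Hspa5 sit between 165.9 and 205.1 CPM and the Surgery and VitD libraries between 230.6 and 272.8 CPM, while the library VitD replicate 1 stands far above the others for Hspb7.

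Across the 15 libraries the members differed in how much they varied. Levels between libraries are given as CPM, the count scaled by library size and edgeR's TMM factor. Hspb7 spread the most, with 3.57 times between its highest and lowest library, followed by Hsp90aa1 with 2.40 times. For the other 8 members this ratio lay between 1.32 (Hsph1) and 1.73 (Dnajb1). The plot of CPM by library shows the same 4 genes, Hspa5, Dnajb1, Hsp90aa1 and Hspb7, with Surgery and VitD means above the other group means. Each is described in turn, by where its protein works.

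The product of Hspa5 binds newly made proteins in the ER lumen and is the best known marker of the unfolded protein response. Its Control libraries held 170.0 and 193.7 CPM, and its Surgery libraries 230.6 and 237.7. The pMT libraries held 191.3, 192.7, 194.6 and 205.1 CPM, the pMT/VitD libraries 203.1, 173.3, 165.9 and 184.3, and the VitD libraries 272.8, 247.7 and 233.2. The Surgery and VitD libraries all lay above every library of the other 3 groups. The group means ranked VitD (251.2 ± 20.03 CPM, SD, n = 3), Surgery (234.1 ± 4.95, SD, n = 2), pMT (195.9 ± 6.25, n = 4), Control (181.8 ± 16.8, n = 2) and pMT/VitD (181.6 ± 16.2, n = 4). The ranges of VitD and Surgery overlapped, as did those of pMT, Control and pMT/VitD.

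Hspa5 was the member that passed the test of any difference among the 5 groups (edgeR's quasi-likelihood test, Benjamini-Hochberg adjusted p = 0.0243). That test called 11.8% of all genes. The next lowest adjusted p-values of this test were 0.0766 for Dnajb1, 0.113 for Hsp90aa1 and 0.142 for Hspb7. Without 1 library at a time the count of members called by it ran from 0 to 3.

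Dnajb1 starts the ATPase cycle of HSP70 and is among the genes most readily induced by heat. Control libraries held 9.36 and 9.20 CPM, against 12.59 and 13.03 for Surgery. The pMT libraries held 10.73, 10.31, 9.39 and 9.76 CPM, the pMT/VitD libraries 9.53, 11.05, 9.18 and 9.17, and the VitD libraries 15.86, 12.22 and 10.35. Both Surgery libraries exceeded all Control, pMT and pMT/VitD libraries, whereas the lowest VitD library fell within the range of the pMT and pMT/VitD libraries. The Surgery mean (12.8 ± 0.310 CPM, n = 2) and the VitD mean (12.8 ± 2.81, n = 3) were level, and the pMT/VitD range (9.73 ± 0.894) overlapped those of pMT (10.1 ± 0.594) and Control (9.28 ± 0.111).

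Hsp90aa1 encodes HSP90α, which in muscle also serves the folding of myosin. Control had 31.07 and 33.05 CPM and Surgery 45.79 and 46.26. The pMT libraries held 40.20, 36.57, 34.35 and 43.49 CPM, the pMT/VitD libraries 43.30, 43.36, 24.17 and 35.75, and the VitD libraries 58.04, 50.57 and 45.50. The Control libraries lay below all Surgery, pMT and VitD libraries, and the library pMT/VitD replicate 3 was the lowest of the 15. The VitD (51.4 ± 6.31 CPM) and Surgery (46.0 ± 0.339) ranges overlapped, and so did the pMT (38.7 ± 4.03) and pMT/VitD (36.7 ± 9.05) ranges.

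Hspb7 varied most within a group. Control had 300.3 and 278.1 CPM, and Surgery 488.9 and 490.0. The pMT libraries held 480.8, 403.9, 315.6 and 473.1 CPM, the pMT/VitD libraries 404.2, 325.8, 263.7 and 333.9, and the VitD libraries 941.7, 493.2 and 326.6. The VitD mean of 587.2 ± 318.1 CPM rested on VitD replicate 1, whose value exceeded the sum of the other VitD libraries, and the lowest VitD library fell inside the pMT/VitD range.

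In CPM the other 6 members showed no such order. In TPM, all of them but Hspb1 had Surgery and VitD means above the other group means. Bag3, for instance, held 111.5 TPM in Surgery and 118.3 in VitD, against 83.35 in Control, 106.6 in pMT and 80.38 in pMT/VitD. Hspa8, which also uncoats clathrin vesicles, had 1046 and 1091 CPM in Control, 951.9 and 967.0 in Surgery and 963.4, 1021 and 994.1 in VitD. It ranged from 910.5 to 1140 in the pMT libraries (median 960.5), and the pMT/VitD libraries held 1296, 1301, 1062 and 1058. In CPM, all pMT/VitD libraries were above all Surgery and VitD libraries, and 2 of them exceeded every other library of the series. The order depended on the scale. In TPM the pMT/VitD libraries held 558.9 to 702.6, the Surgery libraries 700.4 to 711.9 and the VitD libraries 724.1 to 744.8. In CPM, Cryab was highest in single libraries, namely pMT replicate 4 (1803 CPM), pMT/VitD replicate 1 (1698) and pMT/VitD replicate 2 (1619), with VitD replicate 1 (1599) next and the others between 1068 and 1284. These peaks also depended on the scale. In TPM, pMT replicate 4 held 1841, pMT/VitD replicate 1 1752 and pMT/VitD replicate 2 1751, against 1852 and 1902 in Surgery. The highest TPM of Cryab was 2539, in VitD replicate 1.

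Hspb1, Hspb6, Bag3 and Hsph1 had overlapping ranges in most pairs of groups. Hspb1 ran from 387.7 CPM in a VitD library to 631.1 in a pMT library, with group means between 454.8 and 527.7. Hspb6, which is phosphorylated by protein kinase A, had group means between 1247 and 1329 CPM, and its highest value (1731) was in VitD replicate 1. Bag3 had group means between 155.9 and 177.6 CPM and was also highest in VitD replicate 1, at 220.1. Hsph1, which frees HSP70 of ADP, had group means between 59.2 and 62.6 CPM. None of these 4 genes was called by edgeR in any comparison. The pMT libraries of Bag3 (177.3 ± 5.96 CPM) all lay above the Surgery libraries, as in 13.2% of all genes. They also lay above the Control libraries, for which no share was counted. In TPM, pMT replicate 4 (74.2) lay below the Surgery (111.9 and 111.1) and Control (88.3 and 78.39) libraries. The Surgery libraries of Hspb1 and Bag3 lay above the Control libraries in CPM, as in 31.7% of all genes.

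**Figure D2:**
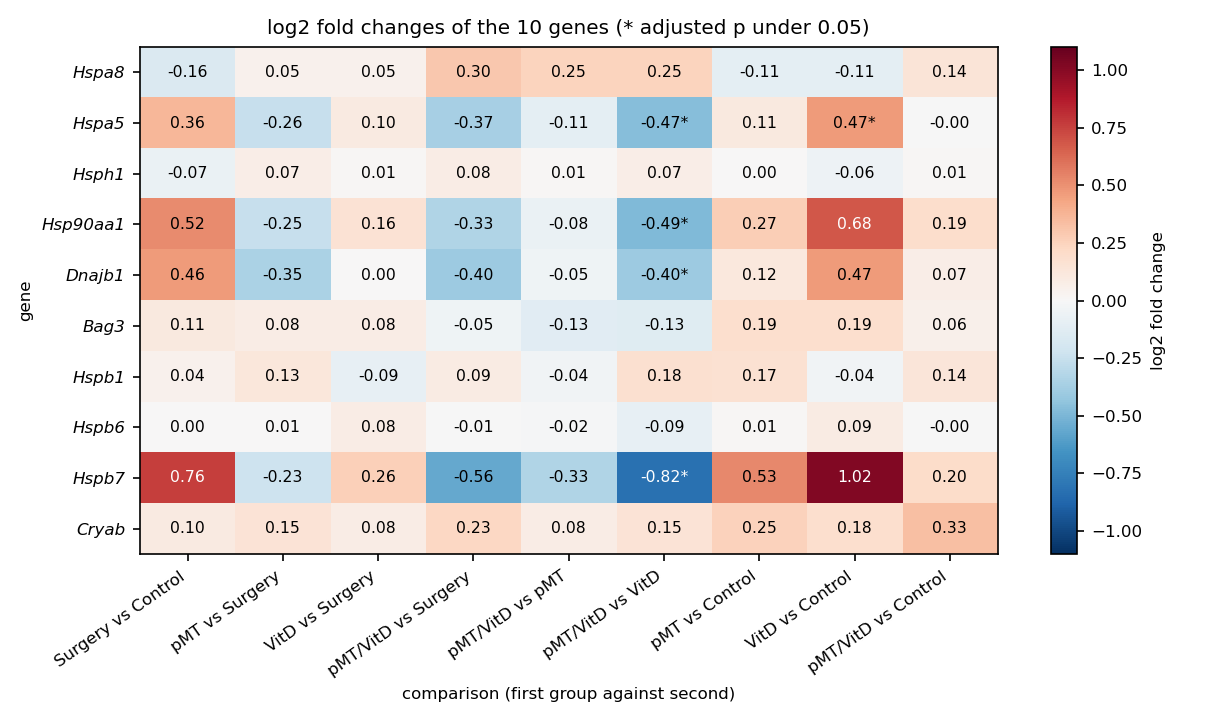
Log2 fold change of the 10 members (rows) in the 9 comparisons between groups (columns), with each value printed, colour for its size on a scale from -1.1 to 1.1 and an asterisk where edgeR's adjusted p was under 0.05. The called values are 4 decreases of pMT/VitD against VitD (Hspa5, Dnajb1, Hsp90aa1 and Hspb7) and 1 increase of VitD against Control (Hspa5).

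Adding pMT to VitD gave the comparison with most calls among the members. Between the pMT/VitD and VitD groups, 4 of the 10 members fell and none rose, where 12.2% of all genes tested fell and 21.9% were called in either direction. Hspa5 fell by 0.47 on the log2 scale (SE 0.103, 0.723 times, adjusted p = 0.00624, edgeR). Hspb7 fell by 0.82 (SE 0.270, 0.565 times, adjusted p = 0.0424), Hsp90aa1 by 0.49 (SE 0.165, 0.713 times, adjusted p = 0.0481) and Dnajb1 by 0.40 (SE 0.128, 0.760 times, adjusted p = 0.0393). In CPM, the pMT/VitD libraries all lay below the VitD libraries for 2 members, Hspa5 and Hsp90aa1, and above them for 1, Hspa8. Of all genes, 15.6% and 13.0% did so. The groups overlapped for Hspb7 and Dnajb1.

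Leaving out the library VitD replicate 1 removed 3 of these 4 calls. Without it, Hspb7 had a log2 change of -0.30 (adjusted p = 0.352, edgeR), Dnajb1 one of -0.21 (adjusted p = 0.229) and Hsp90aa1 one of -0.39 (adjusted p = 0.185). Hspa5 was still called without it, with a log2 change of -0.40 (adjusted p = 0.0233). Without any one of pMT/VitD replicate 3, pMT/VitD replicate 4, VitD replicate 1 and VitD replicate 2, the count of members called was 1, Hspa5. In these fits 18.8%, 26.5%, 10.9% and 14.7% of all genes were called, against 21.9% with all libraries.

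Against uninjured muscle, Hspa5 rose in the VitD group. The change was 0.47 on the log2 scale (SE 0.125, 1.38 times, adjusted p = 0.0349, edgeR), where 5.48% of all genes tested rose and 8.67% were called in either direction. Hsp90aa1 (log2 change 0.68, SE 0.202, adjusted p = 0.0506), Hspb7 (1.02, SE 0.335, adjusted p = 0.0724) and Dnajb1 (0.47, SE 0.155, adjusted p = 0.0759) did not pass. Without VitD replicate 1 the log2 change of Hspa5 was 0.40 and missed the threshold (adjusted p = 0.0846). No member was called without either Control library (0.0731% and 0.163% of all genes), VitD replicate 1 (3.58%) or VitD replicate 2 (4.51%). Without VitD replicate 3, 4 members were called, beside 14% of all genes.

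Surgery alone gave 0 of 10 members called against Control by edgeR's quasi-likelihood test, where 1.55% of all genes were called. At an unadjusted p under 0.05 there were 3 members, beside 17.0% of all genes. DESeq2 called 1 member (5.64% of all genes with an adjusted p) and limma voom with quality weights called 4 (28.5% of all genes). The log2 changes were 0.76 for Hspb7 (adjusted p = 0.298), 0.52 for Hsp90aa1 (adjusted p = 0.237), 0.46 for Dnajb1 (adjusted p = 0.170) and 0.36 for Hspa5 (adjusted p = 0.180). The 2 Surgery libraries lay above both Control libraries for 7 members and below them for 1, but with 2 libraries against 2 the groups also failed to overlap in 31.7% (higher) and 34.4% (lower) of all genes.

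The pMT group had 0 members called against Surgery by edgeR, where 1.94% of all genes were called. Of the members, 2 had an unadjusted p under 0.05, beside 14.3% of all genes. These were Dnajb1, with a log2 change of -0.35 (adjusted p = 0.268), and Hspa5, with one of -0.26 (adjusted p = 0.330). DESeq2 called 0 (4.39% of all genes with an adjusted p) and limma voom with quality weights called 3 (37.5% of all genes). The pMT libraries lay below both Surgery libraries for 4 members and above them for 1, where 17.2% and 13.2% of all genes did so.

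The pMT/VitD group had 0 members called against Surgery by edgeR, beside 7.44% of all genes. Hspa5 (log2 change -0.37, adjusted p = 0.0680) and Dnajb1 (-0.40, adjusted p = 0.106) had an unadjusted p under 0.05, as 24.8% of all genes did. DESeq2 called 1 member (13.1% of all genes with an adjusted p) and limma voom with quality weights called 5 (39.4% of all genes). In CPM, all pMT/VitD libraries lay below both Surgery libraries for 4 members and above them for Hspa8. Of all genes, 20.2% and 16.6% did so. The comparisons with Surgery share its 2 libraries, and those with Control and VitD share theirs, so they are not separate evidence.

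The other 4 comparisons held no call by edgeR with all libraries. No gene of the whole table passed edgeR's test between pMT/VitD and pMT, VitD and Surgery, pMT and Control, or pMT/VitD and Control, which is 0% of 17201 in each. Between pMT/VitD and pMT, Hspa8 was the 1 member with an unadjusted p under 0.05 (log2 change 0.25, adjusted p = 0.494), beside 10.1% of all genes. In the other 3 comparisons 0 members reached an unadjusted p under 0.05, beside 0.808%, 3.07% and 2.88% of all genes. DESeq2 called no member in any of the 4, beside 1.3%, 0.00405%, 0% and 0% of all genes with an adjusted p, in the order first named. limma voom with quality weights called 2 between pMT/VitD and pMT (38.3% of all genes) and 1 (Cryab) between pMT/VitD and Control (10.6%). It called 0 between VitD and Surgery (2.44%) and between pMT and Control (1.32%). The effect of pMT in rats given VitD minus that in rats not given it was called for 0 of 17201 genes by edgeR, with 888 genes and no member at an unadjusted p under 0.05. Without the libraries numbered 4 of the pMT and pMT/VitD groups, edgeR called 18.3% of all genes between pMT/VitD and pMT, with 1 member (Hspa8). It then called 0.0233% between pMT and Control and 0.064% between pMT/VitD and Control, with 0 members.

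Of the members with little change, Hspb1, Hspb6, Cryab, Hsph1 and Bag3 can be bounded. Over their 45 tests (5 genes in 9 comparisons) the log2 changes lay between -0.13 and 0.33 and the smallest unadjusted p was 0.177 (edgeR). Their 95% intervals lay within -0.48 to 0.82 on the log2 scale, so larger changes than these are outside the intervals, and smaller ones could not be told from none with 2 to 4 libraries per group.

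The table holds other entries described as copies of Hsp90aa1 and Hspa8, and the counting could split reads between them. Their sequences were not compared here. The annotation describes 3 copies of Hsp90aa1, which held 65.3% to 68.2% of the counts summed over the gene and its copies in each library. One of them, LOC103692716, described as HSP 90-alpha, had 0.986 to 0.997 times the count of Hsp90aa1 itself, so the 2 entries carry almost the same value. The 6 entries described as copies of Hspa8 held 30.1% to 32.7% of their summed counts, and 1 of these carries another name, Haus8l2, in GRCr8. With the copies summed, Hsp90aa1 fell by 0.52 on the log2 scale between pMT/VitD and VitD (adjusted p = 0.0438, edgeR), an alternative chosen after the data were seen. Between VitD and Control the summed copies changed by 0.71 (adjusted p = 0.0506), the same side of the threshold as for Hsp90aa1 alone. The annotation also places Hspb2 over Cryab and Lin37 over Hspb6, and how the counting treated strand is not stated in the sources used here.

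**Figure D3:**
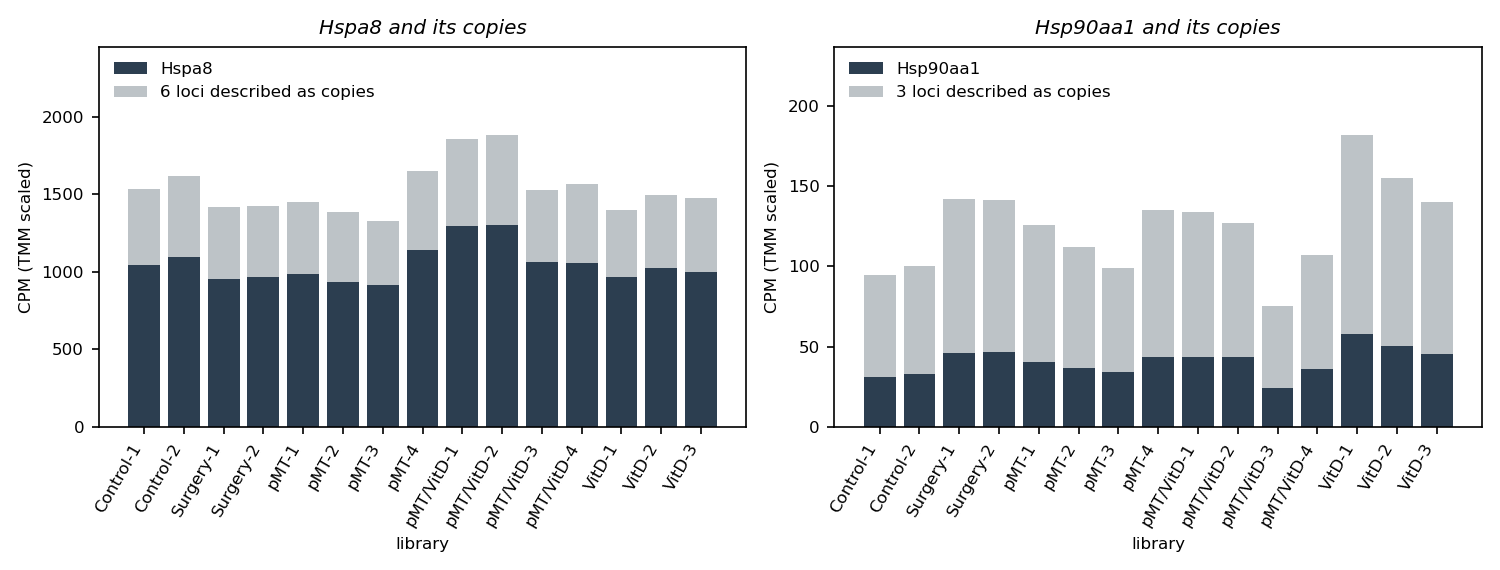
CPM of Hspa8 and Hsp90aa1 (dark bars) with the sum of the loci described as their copies stacked on top (grey), in each of the 15 libraries. The order of the libraries is much the same with and without the copies, and the share held by the copies ranges from 65.3% to 68.2% for Hsp90aa1 and from 30.1% to 32.7% for Hspa8.

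Other chaperone genes of the same pathways were read from lists by role, 110 genes in all, of which 108 were in the table and 106 were tested. Between pMT/VitD and VitD, 18 of them rose and 11 fell, where 21.9% of all genes were called, with a median log2 change of 0.08 (0 over all genes tested). The balance depended on the scaling, since with library size alone 4 rose and 38 fell. In that setting 33.5% of all genes were called and the median log2 change of all genes was -0.34. Between VitD and Control 9 rose and 6 fell (8.67% of all genes were called), between pMT/VitD and Surgery 5 rose and 6 fell (7.44%), between Surgery and Control 4 rose (1.55%), and between pMT and Surgery 4 fell (1.94%). With library size alone these counts were 22 higher and 0 lower, 1 higher and 20 lower, 12 higher and 0 lower, and 2 lower. In the same order, 16.2%, 18.9%, 5.8% and 1.96% of all genes were then called.

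The ER chaperone and unfolded protein response list, whose gene products fold secreted and membrane proteins beside Hspa5, held most of the decreases. Of its 24 tested genes, 9 fell and 1 rose between pMT/VitD and VitD, where 12.2% of all genes fell and 21.9% were called either way, with a median log2 change of -0.30. Serpinh1, the collagen chaperone HSP47, fell by 0.90 on the log2 scale (SE 0.133, adjusted p = 0.000724), from 294.2 ± 59.6 CPM to 158.2 ± 15.8. Sdf2l1, an ER partner of HSP70 J-domain proteins, fell by 0.77 (SE 0.176, adjusted p = 0.00792). Hsp90b1, the ER form of HSP90 (GRP94), fell by 0.54 (SE 0.0965, adjusted p = 0.00203), from 144.6 ± 7.81 CPM to 99.4 ± 8.76. Hsp90b1 was named for its likeness to Hspa5 over these libraries, so its similar change was selected for. The one that rose was Atf4, the transcription factor of the PERK branch, by 0.86 (SE 0.153, adjusted p = 0.00202), from 268.4 ± 42.3 CPM to 486.1 ± 64.7. Calr, the lectin chaperone calreticulin and one of the most abundant of the list, had 323.2 ± 16.5 CPM in VitD and 333.1 ± 18.5 in pMT/VitD and was not called.

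The same list rose in part in the VitD group. Against Control, 8 of 24 rose and 1 fell (median log2 change 0.26), where 5.48% of all genes rose and 8.67% were called. Serpinh1 rose by 0.87 (adjusted p = 0.00952, edgeR) and Hsp90b1 by 0.61 (adjusted p = 0.00969), and Atf4 had a log2 change of -0.64 (adjusted p = 0.0383). Surgery against Control gave 4 higher (median 0.22), pMT against Surgery 4 lower (median -0.20), and pMT/VitD against Surgery 6 lower and 1 higher (median -0.27). Of all genes, 1.55%, 1.94% and 7.44% were called in these comparisons. The calls between Surgery and Control were lost without any one of the libraries of these groups. In those fits 0.0449% to 0.113% of all genes were called. Without VitD replicate 1, 7 genes of the list were lower and 1 higher between pMT/VitD and VitD (10.9% of all genes were called). Between VitD and Control 4 were then higher (3.58%).

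**Figure D4:**
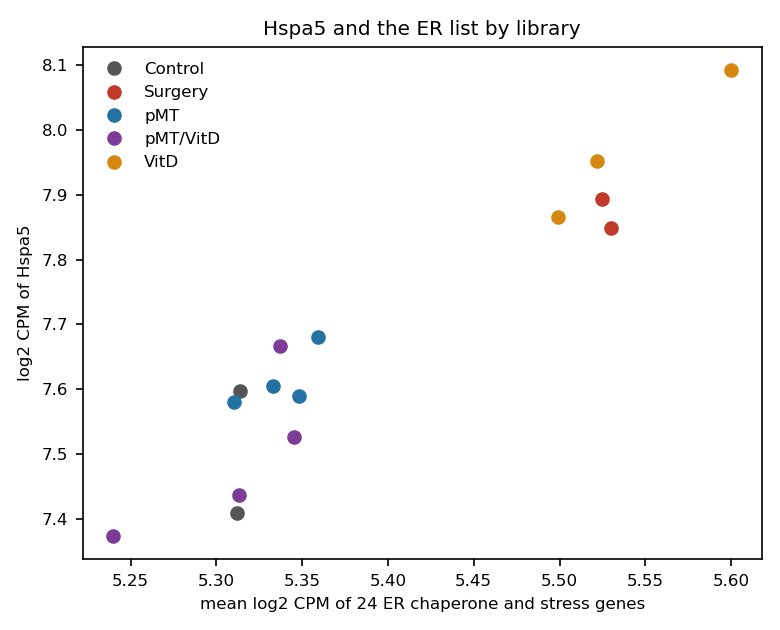
Hspa5 in log2 CPM (vertical) against the mean log2 CPM of the 24 other ER chaperone and unfolded protein response genes (horizontal), 1 point per library with a colour for each group. The 3 VitD libraries (5.499 to 5.600 on the horizontal axis) and the 2 Surgery libraries (5.525 and 5.530) lie apart from the Control, pMT and pMT/VitD libraries, which reach no higher than 5.359.

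Markers of other cells moved with Hspa5 and the ER list. The summed level of 9 macrophage markers was 299.2 to 317.3 CPM in Control, 586.2 to 593.9 in Surgery, 248.1 to 334.2 in pMT, 231.0 to 339.4 in pMT/VitD and 502.5 to 787.7 in VitD. All 9 of them fell between pMT/VitD and VitD, as did 6 of 7 fibroblast and matrix markers, whose sums were 2693 to 2724, 4916 to 4961, 2659 to 3175, 2002 to 2933 and 4065 to 7996 CPM in the same order. Denervation and regeneration markers, 9 of 10 of which fell in that comparison, summed to 180.9 to 281.1 CPM in pMT/VitD and 424.7 to 1446 in VitD. Muscle fibre markers summed to 159300 to 181700 CPM in pMT/VitD and 103800 to 142500 in VitD, and 3 of 9 rose. Of all genes tested, 12.2% fell and 21.9% were called in either direction between these groups. No marker of these lists was at 0 counts in any library. The trend of expression with gene length within a library, given as Spearman's rho, differed as well, with -0.394, -0.388, -0.165 and 0.154 in the pMT/VitD libraries and -0.032, 0.166 and 0.289 in the VitD libraries. With that trend removed, Hspa5 had a log2 change of -0.42 between these groups (adjusted p = 0.00405, edgeR), while Hsp90aa1 was no longer called (-0.42, adjusted p = 0.0870). In that fit 11 genes of the ER list were lower and 1 higher, beside 25.4% of all genes called.

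Over the 15 libraries, Pearson's r of log2 CPM with the macrophage, fibroblast and muscle fibre levels was 0.861, 0.901 and -0.867 for Hspa5, and 0.817, 0.839 and -0.814 for Dnajb1. The value for Hspb7 with the muscle fibre level was -0.861. These values describe libraries that share group and scaling, and the part of the other cells in the differences was not tested.

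Heat shock factors, the transcription factors that induce many chaperone genes, also differed. Between pMT/VitD and VitD, Hsf1, the main factor of the heat shock response, rose by 0.70 on the log2 scale (SE 0.118, adjusted p = 0.00156), from 23.7 ± 4.54 CPM to 38.4 ± 1.09. Hsf4 rose by 0.76 (adjusted p = 0.00148), and Hsf2 fell by 0.52 (SE 0.155, adjusted p = 0.0288). Between VitD and Control, Hsf1 fell by 0.63 (adjusted p = 0.0158) and Hsf4 by 0.70 (adjusted p = 0.0137). With library size alone, 2 factors were still higher and 1 lower between pMT/VitD and VitD (33.5% of all genes were called). Between VitD and Control 0 of 4 were then called (16.2%).

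Among the cytosolic partners, the most abundant gene was Hsp90ab1, the constitutive HSP90, with 639 TPM and 1168 ± 37.3 CPM in pMT/VitD against 1024 ± 135.3 in VitD (log2 change 0.19, adjusted p = 0.256). Its co-chaperones Fkbp4 (0.50) and Cdc37 (0.40), which bring steroid receptors and kinases to HSP90, rose in this comparison. Bag6 (0.64) and Stub1 (0.43), a ubiquitin ligase of HSP70 clients, rose as well, as did Hspa1l (0.56), Hspb2 (0.49), the J-domain genes Dnajc21 (0.96) and Dnajb2 (0.51), and the mitochondrial genes Hspe1 (0.58) and Clpp (0.43). The values in parentheses are log2 changes, each with an adjusted p under 0.05. Of the autophagy partners of Bag3, Sqstm1 rose (0.39) and Lamp2 fell (-0.53). Hspa1a, the inducible HSP70, had 22.8 ± 22.5 CPM in pMT/VitD and 29.0 ± 0.233 in VitD, where pMT/VitD replicate 4 (56.5) stood above the other pMT/VitD libraries (10.5 to 12.3). These increases depended on the scaling: with library size alone 1 J-domain gene rose and no gene of the HSP70, small heat shock protein, HSP90, BAG, autophagy or mitochondrial lists did. The ER list gave 17 lower and 1 higher with that scaling, where 33.5% of all genes were called. With TMM factors it gave 9 of the 11 decreases and 1 of the 18 increases, as the plot of fold changes by list shows.

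**Figure D5:**
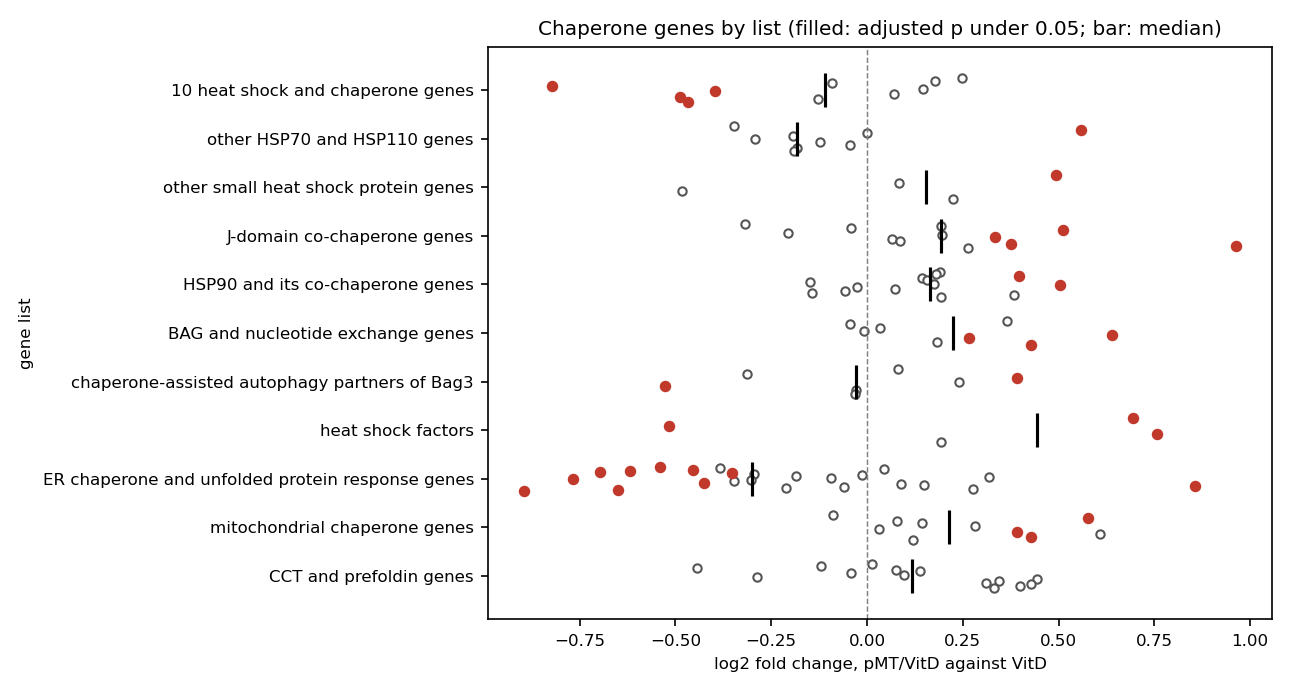
Log2 fold change of pMT/VitD against VitD (horizontal) for each gene of the 10 heat shock and chaperone genes and of the lists of other chaperone genes (vertical), with filled points where edgeR's adjusted p was under 0.05 and a bar at each list's median. The ER list has 9 filled points below 0 and 1 above, and the 10 members have 4 below 0 and none above.

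With all libraries, the other 4 comparisons gave 0 of 106 listed genes called by edgeR. At an unadjusted p under 0.05 there were 16 between pMT/VitD and pMT (10.1% of all genes), 6 between pMT and Control (3.07%), 2 between pMT/VitD and Control (2.88%) and 0 between VitD and Surgery (0.808%). DESeq2 called 1, 0, 0 and 0 of them in the same order, beside 1.3%, 0%, 0% and 0.00405% of all genes with an adjusted p. limma voom with quality weights called 32 higher and 18 lower (38.3% of all genes), 1 lower (1.32%), 13 higher and 5 lower (10.6%), and 1 higher (2.44%).

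The members also differed in which of them ran together. Over the 15 libraries, with log2 CPM and Pearson's r as a description, the highest values were 0.863 for Hspb7 with Dnajb1, 0.845 for Hsp90aa1 with Hspa5, 0.811 for Hspb7 with Bag3, 0.810 for Hspb7 with Hsp90aa1 and 0.803 for Dnajb1 with Hspa5. The lowest was -0.842, for Hspb6 with Hsph1. Cryab, with no call by edgeR in any comparison, had r = 0.869 with the adipocyte marker level and 0.654 with the slow fibre level. Hspa8 had its strongest values with the endothelial (-0.756) and smooth muscle (-0.732) levels, and 0.679 with the slow fibre level. No slow fibre marker was called in any comparison.

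Of 7803 genes whose log2 CPM averaged 3 or more, those most like each member over the 15 libraries were found in the same way. For Hspa5 they were Hsp90b1 (r = 0.967), Fli1 (0.966) and Klf6 (0.961), and for Dnajb1 Rgcc (0.964), Prnp (0.960) and RGD1564664 (0.945). For Hspb7 they were Cnn3 (0.970), Rhoc (0.947) and Stmn1 (0.945), and for Hsp90aa1 its copies LOC103692716 (1 after rounding) and LOC100362895 (0.946) with LOC100911361 (0.942). The first of these copies has nearly the same counts as Hsp90aa1, which fixes its r.

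Hspa8 was most like Nt5c3a (0.960), Nedd8 (0.960) and Apip (0.959), and Cryab was most like Ankrd2 (0.952), Serpine2 (0.928) and Tex264 (0.926). Hsph1 was most like Atp2a2 (0.917), Larp1b (0.903) and Bicd2 (0.883), and Hspb6 most like Rae1 (0.882), Anxa7 (0.875) and Retsat (0.860). Bag3 (Tpm4 0.840, Mfge8 0.837, Rnpep 0.826) and Hspb1 (Dlgap4 0.764, Klhl40 0.759, Pgam5 0.750) had the loosest companions. The libraries share groups, depth and scaling, so these values rank likeness and carry no test.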

How the data were processed

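RNA of rat multifidus was measured by paired-end sequencing in 15 libraries, grouped by their titles. The authors trimmed the reads with Trimmomatic 0.38, aligned them to rn6 with HISAT2 2.1.0 and used SAMtools 1.9 and StringTie 2.1.3b with RefSeq genes to obtain values per gene, and the submitters' processing notes also name edgeR 3.40.2. The deposited counts per gene are not normalized. The deposited TPM values are scaled per library and were used here to compare levels between genes. For Hspa8, Hspb1, Hspb6, Cryab, Hsph1 and Bag3 they also gave a second scale between libraries. The deposited FPKM columns (15) were not used.

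Counts were scaled with TMM factors and filtered with filterByExpr in edgeR 4.0.16 (R 4.3.3), and all 15 libraries were fitted with glmQLFit (robust). Genes were called at a Benjamini-Hochberg adjusted p under 0.05 over the 17201 genes tested. Correlations used log2 CPM with a prior count of 2. DESeq2 1.42.0, limma 3.58.1 (voom with quality weights), edgeR's exactTest with a fold of at least 2, other scalings and filters, a replicate block, removal of a length trend (lowess span 0.3) and leaving out libraries were alternatives. Tests were run on simulated counts first. The members, lists and rules were chosen with earlier results of these data known. Apart from Hsp90b1, named list genes were at most the 3 most abundant of a list and, per comparison, the 2 higher and 2 lower calls with the largest change. Hspa1a and Hsp90ab1 are among the former. Hsp90b1 was named as the gene most like Hspa5 (r = 0.967), so its likeness to Hspa5 was selected for.

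Counting strand and the treatment of reads with several matches are not given in the sources used here.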

Additional observations from a re-analysis of the deposited data

How the results depend on the processing

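No member's change reversed its direction where it was called. The decrease of Hspa5 between pMT/VitD and VitD was called in 17 of 19 settings, not with the 2 groups fitted alone (adjusted p = 0.0524, edgeR) nor under the exactTest rule with its fold threshold, and its log2 change ran from -0.82 to -0.40. The single-gene values counted were those of members and comparisons with an unadjusted p under 0.05 by edgeR with all libraries. Those of Hspa5, Dnajb1, Hsp90aa1 and Hspb7 in the comparisons where any gene was called were added. Of these values, 265 kept their side of the threshold, 42 came to pass it and 36 no longer passed it. They were picked from these same results, and the remaining pairs were not counted. Of the counts, 129 stayed within 1.5 times and 44 did not. The cause of these changes was not tested.

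The counts of members called that moved were as follows, each with the share of all genes called in the same setting. Between pMT/VitD and VitD (4), limma voom with quality weights gave 7 (48.7%), the 2 groups alone 0 (11.3%), the exactTest rule 0 (6.95%), the fit without the libraries numbered 4 of the pMT and pMT/VitD groups 1 (32%), and leaving out 1 library 1 to 4 (10.9% to 26.5%). Between VitD and Control (1), RLE gave 2 (9.03%), library size 4 (16.2%), no filter 0 (4.82%), length trend removal 3 (13.8%), DESeq2 4 (13.7%), voom 4 (37.4%), the 2 groups alone 0 (0.579%), and leaving out 1 library 0 to 4 (0.0731% to 14%). Between Surgery and Control (0), library size gave 1 (5.8%), DESeq2 1 (5.64%), voom 4 (28.5%) and the 2 groups alone 4 (32.4%). Against Surgery (0), pMT gave 3 with voom (37.5%), and pMT/VitD gave 3 with library size (18.9%), 1 with DESeq2 (13.1%), 5 with voom (39.4%) and 1 without the libraries numbered 4 (20.1%). Between pMT/VitD and pMT (0), voom gave 2 (38.3%) and the fit without the libraries numbered 4 gave 1 (Hspa8, 18.3%), and between pMT/VitD and Control (0), voom gave 1 (10.6%). For any difference among the groups (1), library size gave 4 (20.8%), DESeq2 4 (20.7%), voom 7 (66.6%) and leaving out 1 library 0 to 3 (6.38% to 16%).

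Whether replicate numbers pair the libraries was not settled. Correlations of deviations from the group mean between libraries with the same number ran from -0.904 to 0.397 and exceeded 0.1 in 7 of 24 pairs. Pairs with different numbers were not summarised for comparison, and in a group of 2 libraries the deviations are opposite by construction. With the replicate block, 3 members were called between VitD and Control (Hspb7, Dnajb1 and Hsp90aa1, with Hspa5 at an adjusted p of 0.0547, where 7.55% of all genes were called) and 0 for any difference among the groups (6.28%). With library size alone the median log2 change of all genes was -0.34 between pMT/VitD and VitD and -0.32 between pMT/VitD and Surgery. It was 0.25 between Surgery and Control and 0.27 between VitD and Control. With TMM factors these medians were 0, -0.0016, -0.0138 and -0.0125. With counts of 427 or more in every library, the number of libraries limits the precision for these genes, not depth.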
